A study of Mus musculus with 2 samples.

Results

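The DNA-replicating cells outside mitosis are 150 of the 2209 cells of a single-cell RNA sequencing data set on mouse intestinal organoids. They were chosen by their transcripts. Cells in which at least 5 of the 6 mitosis genes Mki67, Top2a, Ube2c, Ccnb1, Cdk1 and Birc5 were detected were set apart as mitotic cells (285). Of the remaining 1924 cells, the 150 with the highest sum of the deposited natural log values of Mcm3, Mcm5, Mcm6, Pcna, Hells, Ung and Rrm2 are the members, and 1774 are called other non-mitotic cells. When no mitotic cell was set apart, only 77 of the 150 cells with the highest sum were members. Many cells with high sums thus lie among the mitotic cells, and the members are not all cells with such sums. DNA content and DNA synthesis were not measured, so the name rests on transcripts.

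The organoids are Apc mutant (Apc restrains Wnt signalling, and its loss keeps the pathway on) and come from C57Bl mice aged 3 to 4 months. A library of cells treated with DBZ (1241 cells) was set beside a library treated with the vehicle DMSO (968 cells). DBZ blocks gamma-secretase, a protease that Notch receptors need in order to signal. The protocol text given for both samples names 300 nM 4-hydroxytamoxifen and 10 uM DBZ, and does not say what the tamoxifen acts on or when it was given. There was 1 library per treatment, so no difference between libraries has a replicate check, no p-value is given, and every statement compares these libraries. Intervals cover counting error only. The number of animals or cultures behind a library is not given in the sources used here.

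A cell copies its genome once per division, in S phase. Before that, the origin recognition complex, Cdc6 and Cdt1 load rings of the MCM helicase (Mcm2 to Mcm7 in each ring) onto DNA. Cyclin E with Cdk2 and the kinase Cdc7 then start the forks, at which polymerases, the clamp Pcna and its loaders copy both strands. Many of these genes are targets of E2F factors, which the retinoblastoma protein holds in check until cyclin D with Cdk4 or Cdk6 releases them. In the intestinal crypt the stem cells and the transit-amplifying cells above them divide, and secretory cells leave the cycle.

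Among the promoters of the 7 genes that chose the cells, letters of the E2F motif stood in Mcm5 and Mcm6, 2 helicase subunits, and their windows are shown because both hold overlapping matches on the 2 strands. The letters searched were TTTGGCGC and TTTCGCGC on either strand within 250 bases upstream of the start site, in RefSeq promoters of GRCm38.p6. Capitals mark the matches. Positions count from the start site of that promoter table, which can differ from the gene start of another annotation. The first window is chr8:75109336-75109387 on the plus strand, bases -173 to -122 from the start of Mcm5. The second is chr1:128359725-128359835 on the minus strand, bases -130 to -20 from the start of Mcm6.
Mcm5: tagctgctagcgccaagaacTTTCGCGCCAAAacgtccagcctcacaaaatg
Mcm6: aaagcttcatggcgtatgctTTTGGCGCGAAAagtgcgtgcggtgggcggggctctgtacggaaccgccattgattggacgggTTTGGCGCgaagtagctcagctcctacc

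The Mcm6 window holds another match, by itself, at bases -47 to -40. The E2F letters stood in 2 of the 7 promoters and in 1 of the 6 promoters of the mitosis genes (Cdk1). They stood in 215 of all 32817 promoters (0.655%). Genes seen in enough members to be tested, with the genes of the choice included, numbered 9426. Of these, 7287 had a promoter in the table, and 126 of the 7287 genes (1.73%) had a promoter with the E2F letters. The last share counts genes and the share of all promoters counts promoters, so their units differ. The letters TTTGAA are known as the CHR element of many mitosis genes. They stood in 0 of the 7 replication promoters and in 4 of the 6 mitosis promoters (Cdk1, Mki67, Top2a and Ube2c). Of all promoters 16.0% held them, and of the 7287 genes 12.1% had a promoter with them. The letters CCAAT stood in 5 of the 7 and in 5 of the 6, beside 33.8% of all promoters and 40.7% of the 7287 genes. Of the 15 genes with the highest ratios in members, 11 had a promoter in the table, of which 1 (Uhrf1) held the E2F letters, 0 the letters TTTGAA and 4 (36.4%) the letters CCAAT. A match is a description of letters and not a bound site, and promoters without a match can hold other forms of a motif.

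The members' summed log values ran from 3.29 to 10.1, with a median of 5.45. The last 10 members had sums of 3.29 to 3.51 (median 3.44), and the next 10 cells below had 3.05 to 3.25 (median 3.15), so the limit falls within a continuous range. All 7 genes were detected in 19 members, 6 in 57, 5 in 40, 4 in 25, 3 in 8 and 2 in 1 member. No gene of the 7 was present in every member. Pcna, the sliding clamp, was seen in 96.6% of the DBZ members and 95.6% of the DMSO members. Rrm2, the small subunit of ribonucleotide reductase, was seen in 37.3% and 30.8%. Ung, which removes uracil from DNA, was seen in 49.2% and 54.9%. The levels of these 7 genes chose the cells and are a description only.

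Members were deeper than the other non-mitotic cells. Their median was 12939 UMIs (unique molecular identifiers, each a captured transcript) in DBZ and 14124 in DMSO, against 10268 and 9955 in other non-mitotic cells and 20046 and 20430 in mitotic cells. Genes detected per member had medians of 3734 and 3646. Mitochondrial transcripts took a median of 4.50% and 4.26% of member UMIs, close to the 4.74% and 4.55% of the other non-mitotic cells. The libraries shared 3 cell barcodes, none of them a member. Over 30000 UMIs were found in 2 DBZ and 7 DMSO members. Levels below are UMIs of a gene per 10000 UMIs of the cell, averaged with each cell weighted equally, which takes out total depth but not the coarser steps of shallow cells.

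The members were described further with 51 replication genes that did not choose the cells, 23 of origin licensing and the helicase and 28 of polymerases and the fork. Mcm2, Mcm4 and Mcm7 among them belong to the same ring as Mcm3, Mcm5 and Mcm6. A high sum is thus partly tied to the choice, and it does not set members apart from mitotic cells. The summed level of the 51 genes per cell ran from 6.99 to 61.0 in the DBZ members (median 26.1), and from 7.91 to 49.7 in the DMSO members (median 26.1). The other non-mitotic cells had medians of 7.82 with DBZ and 7.99 with DMSO, and the mitotic cells 19.5 and 24.2. The ranges overlapped, but 57 of the 59 DBZ members and 88 of the 91 DMSO members lay above the upper quartile of the other non-mitotic cells of their library. When every cell was thinned to 5000 UMIs, a median member had 10 of the 51 genes detected in each library, against 3 in other non-mitotic cells. Of the 150 non-mitotic cells highest in this sum, 107 (71.3%) were members.

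**Figure D1:**
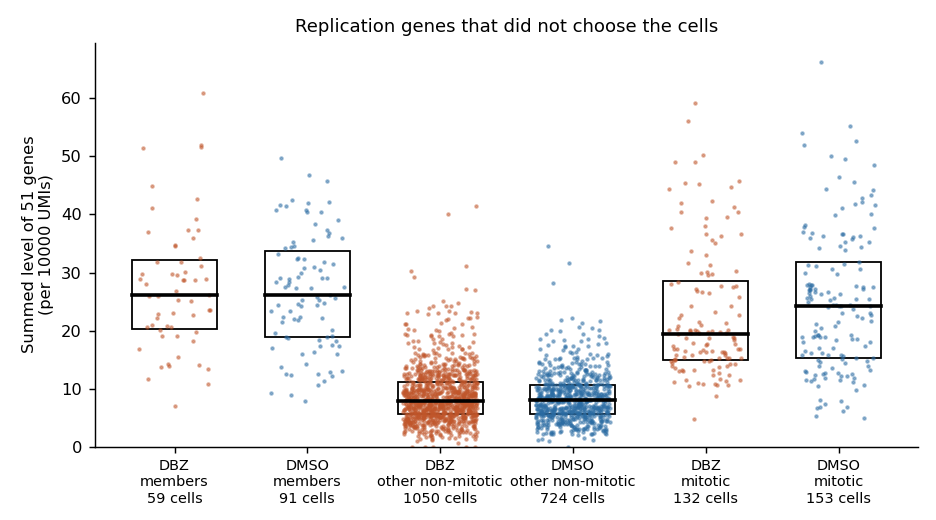
Summed level per 10000 UMIs of 51 replication genes that did not choose the cells, with 1 point per cell; lines are medians and boxes the middle quartiles. Both member groups have medians of 26.1 and the other non-mitotic cells 7.82 and 7.99, while the mitotic cells lie between or near the members.

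A smaller share of the DBZ library than of the DMSO library met the choice. The members were 59 of 1241 DBZ cells (4.75%, exact 95% interval 3.64 to 6.09%) and 91 of 968 DMSO cells (9.40%, 7.64 to 11.4%). The DMSO share was 1.98 times the DBZ share (1.41 to 2.79). Among non-mitotic cells the shares were 5.32% and 11.2%. Mitotic cells were 10.6% (8.98 to 12.5%) of the DBZ library and 15.8% (13.6 to 18.3%) of the DMSO library, so there were 0.447 members per mitotic cell with DBZ and 0.595 with DMSO. Mitotic cells with high sums of the genes of the choice are not members, so these values do not divide S phase from mitosis.

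The ratio of shares depended on which genes chose the cells. Leaving out any 1 of the 7 genes gave ratios of 1.87 to 2.28. Choosing 150 cells by the summed log values of the 51 other genes gave 65 DBZ and 85 DMSO cells, a ratio of 1.68. Choosing them by the summed levels of those 51 genes gave 77 DBZ and 73 DMSO cells, a ratio of 1.22, below the counting interval. Rfc3, a subunit of the clamp loader, was picked out after its values were seen. Its level was 2.11 in other non-mitotic DBZ cells and 0.931 in other non-mitotic DMSO cells, and 1.91 and 1.53 in members. Without Rfc3 the same choice gave 64 DBZ and 86 DMSO cells, a ratio of 1.72. No other gene of the 51 was left out in this way, so the part of Rfc3 in the ratio of 1.22 was not tested. The choices by the 51 genes, with and without Rfc3, were added after seeing the data. Some of the 7 genes were lower in the DBZ library in earlier results on these cells, so the main ratio is not independent of them.

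**Figure D2:**
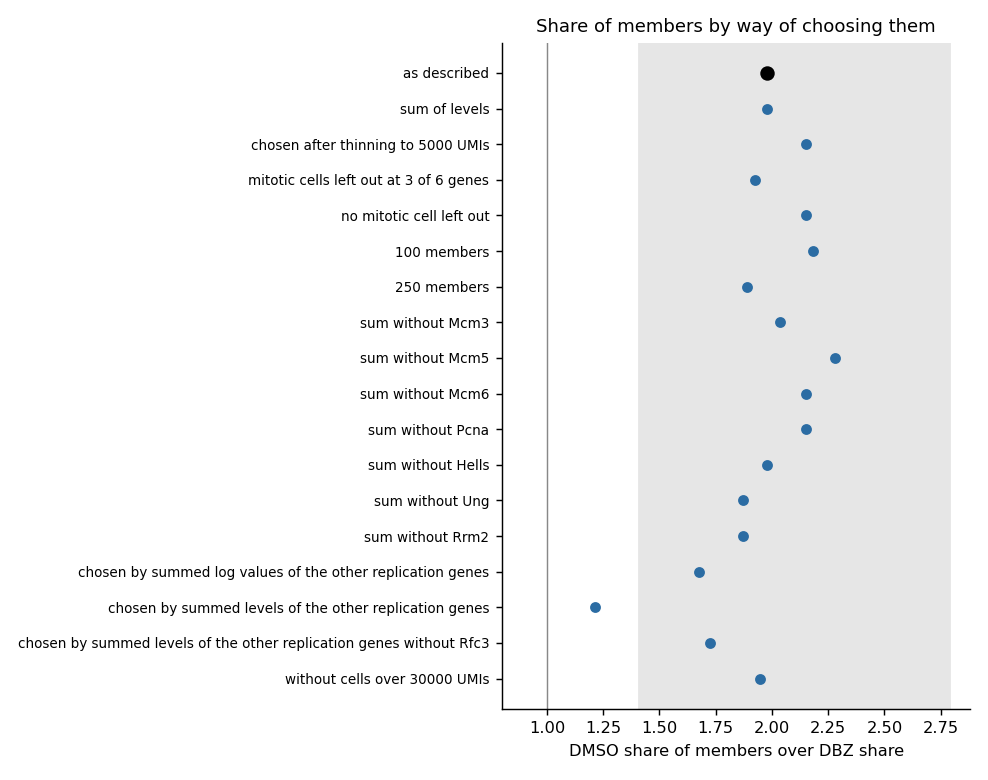
Share of DMSO cells over share of DBZ cells that are members (horizontal axis, 1 is equal shares), for each way of choosing the cells. The black point is the choice described (1.98), the grey band its 95% counting interval (1.41 to 2.79), and the point at 1.22 is the choice by summed levels of the 51 other genes.

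The genes of the replication machinery were higher in members than in other non-mitotic cells of the same library. A gene is called higher or lower below where its ratio passed 2-fold in both libraries, computed as log2 of (level in members + 0.05) over (level in the other cells + 0.05). Over all 9413 genes tested, 2.09% were higher and 0.659% lower by this count. Of 23 licensing and helicase genes, 20 were seen in at least 10% of the members of either library and 15 were higher, also when all 23 are counted. Their median log2 ratio was 2.06 with DBZ and 1.77 with DMSO, where all genes had medians of 0.04 and 0.00. A gene seen too rarely among members is not in these medians, so they lean upward.

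Mcm4, a helicase subunit (chromosome 16, 15623897 to 15637400, minus strand, mm10), had the highest ratio nearer to 0 of its 2 libraries among genes that did not choose the cells. It ranged from 0 to 5.22 in the DBZ members, with a median of 0.998, and from 0 to 4.36 in the DMSO members, with a median of 1.00. The median other non-mitotic cell had 0 in both libraries. Both member groups thus held cells without Mcm4 and their range overlapped the rest. The log2 ratio of means was 3.31 with DBZ and 3.22 with DMSO, and pooled UMIs gave 3.80 (3.37 to 4.22) and 3.55 (3.15 to 3.95). Mcm4 was detected in 72.9% and 76.9% of members, beside 8.19% and 8.98% of other non-mitotic cells. At 5000 UMIs per cell the shares were 40.7% and 44.0% against 3.52% and 4.14%.

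The other loading and firing factors followed in size. Gins2, of the complex that joins the helicase to the fork, had log2 ratios of 2.96 (DBZ) and 2.80 (DMSO). Cdt1, which loads MCM rings, had 2.79 and 2.51, Mcm2 had 2.78 and 2.27, and Cdc6 had 2.61 and 2.07. Gmnn, the inhibitor of Cdt1, had 2.49 and 1.77. Of the 20, 5 did not pass in both libraries: Orc2 (0.72 and 1.10), Orc3 (-0.23 and 0.07) and Orc5 (-0.10 and -0.14) of the origin recognition complex, Mcmbp (0.41 and 0.46) and Dbf4 (1.31 and 0.64). Orc6 had 2.13 and 2.04 and Orc1 1.33 and 1.23.

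At the fork, 17 of 28 genes were higher and none lower, with medians of 1.66 and 1.40. Prim1, the primase, had 2.93 and 2.53. Lig1, which joins the fragments of the lagging strand, had levels of 1.69 in the DBZ members and 1.81 in the DMSO members, beside 0.219 and 0.275 in the others, and ratios of 2.69 and 2.52. Rpa2, which coats single-stranded DNA, had 2.43 and 2.45, and Pold1, the catalytic subunit of polymerase delta, 2.51 and 2.15. Rfc3 had ratios of -0.14 and 0.69, unlike Rfc4 (2.31 and 2.02) and Rfc5 (1.72 and 2.06), its partners in the clamp loader.

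Of 27 genes of nucleotide synthesis, 13 were higher and none lower, with medians of 1.26 and 1.09. Genes for deoxynucleotides and thymidylate were among those with high ratios. Rrm1, the large subunit of ribonucleotide reductase, had 3.05 and 2.16. Dut, which clears dUTP, had 2.82 and 2.48, and Tyms, which makes thymidylate, 2.57 and 2.28. Dut was detected in 89.8% and 90.1% of members and in 26.5% and 24.6% of the others. Genes of purine and pyrimidine synthesis lay on both sides of 2-fold. Ppat (1.89 and 1.38), Ctps (1.74 and 1.21) and Mthfd1 (1.42 and 1.60) passed it, and Impdh2 (0.53 and 0.52), Gmps (0.57 and 0.83) and Dhodh (-0.03 and 0.55) did not.

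Behind the fork, 10 of 20 genes of chromatin assembly and of copying DNA methylation were higher, with medians of 1.30 and 1.15. Chaf1a and Chaf1b are subunits of the assembly factor that places histones on new DNA. Chaf1a had 3.03 and 2.93, from levels of 0.496 and 0.515 in members and 0.0171 and 0.0242 in the others, and Chaf1b had 2.39 and 2.65. Uhrf1, which brings the methyltransferase Dnmt1 to new DNA, had 3.38 and 2.92, and Dnmt1 itself 2.72 and 2.38. Atad2, a chromatin ATPase, had 2.90 and 2.52. The polycomb gene Ezh2 had 1.16 and 1.46, and its partners Eed (0.93 and 0.47) and Suz12 (0.34 and 0.74) did not pass 2-fold.

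Of 23 genes in the histone list, which includes Slbp, 12 were seen in enough members, of which 2 were higher and 1 lower. Some of the others were near 0 also in mitotic cells, as Hist1h4c at 0.0254 (DBZ) and 0.0598 (DMSO). Slbp, which binds the stem-loop of histone mRNA, had log2 ratios of 1.96 and 1.82. Hist1h2ap had 2.07 and 1.23. H2afz, a variant made outside S phase as well, was detected in all members at a level of 3.84 to 26.8 in the DBZ library, and its ratios were 1.10 and 0.95. Hist1h1c, a linker histone, was lower: the median member had 0 in both libraries and the median other cell 1.23 with DBZ and 1.06 with DMSO, with ratios of -1.91 and -2.27. Hist3h2a, a named gene outside the list, had -1.86 and -1.60. Histone genes have near-identical copies, and how the counting split their reads is not given in the sources used here. How fully histone mRNA was captured was not tested, so these levels may not stand for the output of the genes.

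Repair and checkpoint genes stood with the fork genes: 16 of the 25 with enough cells were higher and none lower, 16 of 29 over all in the table, with medians of 1.86 and 1.27. Tipin and Timeless, which hold the helicase and polymerases together, had 2.38 and 2.30, and 2.18 and 2.19. Fignl1, an ATPase of recombination repair, had 3.02 and 2.39. Mms22l, which acts at stalled forks, had 2.67 and 2.46. Clspn, an adaptor of the checkpoint kinase Chek1, had 2.62 and 1.81, and Chek1 had 1.63 and 1.95. Atr, the kinase above it, had 0.40 and -0.12.

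**Figure D3:**
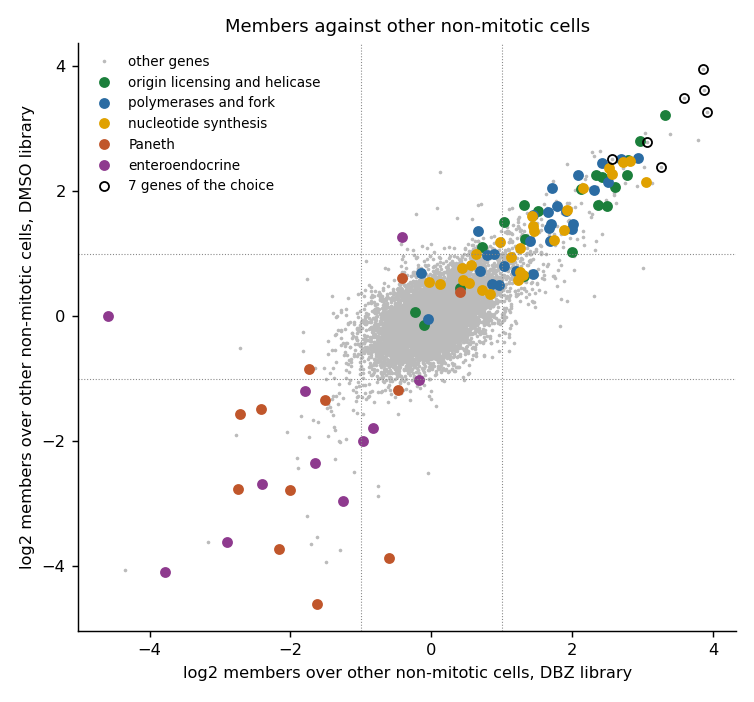
Each point is a gene seen in at least 10% of the members of either library, placed by its log2 ratio of members over other non-mitotic cells in the DBZ library (horizontal) and the DMSO library (vertical); dotted lines mark 2-fold. Licensing, fork and nucleotide genes reach the upper right, where Mcm4 is at 3.31 and 3.22, while Paneth and enteroendocrine genes reach the lower left, and open circles are the 7 genes that chose the cells.

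Of 22 genes of G1/S control, 9 were higher and none lower, with medians of 1.24 and 0.86. E2f1, the activating E2F factor (chromosome 2, 154559407 to 154569892, minus strand), had a median of 0 and a highest value of 3.45 in the DBZ members, and a median of 0.492 and a highest value of 2.83 in the DMSO members. Its ratios were 2.54 and 2.46. E2f2 had 0.70 and 0.13 and E2f3 0.45 and 0.36. Cyclin E genes had 2.47 and 1.86 (Ccne1) and 2.60 and 1.94 (Ccne2). Dtl, which marks Cdt1 for destruction in S phase, had 2.76 and 2.29.

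Ccnd1, the cyclin D1 gene and a Wnt target (chromosome 7, 144929931 to 144939925, minus strand), ranged from 0 to 8.38 in the DBZ members, with a median of 0.499, and reached 20.04 in the DMSO members, with a median of 1.94. The median other non-mitotic cell had 0 in both. Ratios were 2.33 and 1.20. Cdk4 (0.53 and 0.43), Cdk6 (0.78 and 0.26) and Ccnd2 (0.58 and 0.18) did not pass 2-fold.

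Among 13 cell cycle inhibitor genes with enough cells, 2 were lower and 1 was higher. Cdkn1c, the inhibitor p57, had a median of 0 in the members of both libraries and of 1.35 (DBZ) and 1.04 (DMSO) in the others. Its ratios were -2.05 and -1.86, and between -2.41 and -1.33 under every alternative run. Gadd45g, a stress-induced gene that slows the cycle, had -1.39 and -1.29. Cdkn2c, the inhibitor p18, was higher (1.56 and 1.00), and Cdkn1a, the inhibitor p21, had 0.30 and 0.17. In the list sum, a median member had 16.6 with DBZ and 19.3 with DMSO, beside 23.3 and 30.3 in the others. A median mitotic cell had 16.2 and 19.7, close to the members. Btg1 and Btg2 made up much of this sum. In the others Btg1 had mean levels of 12.4 (DBZ) and 10.1 (DMSO) and Btg2 5.16 and 11.2, of mean sums of 26.3 and 32.4. The sum thus does not stand for the Cdkn genes alone.

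Members were not free of mitosis transcripts. Of the 6 mitosis genes used to set mitotic cells apart, 39 members had 0 detected, 37 had 1, 31 had 2, 22 had 3 and 21 had 4. Of 33 further mitosis genes with enough cells (44 in the table), 7 were higher in members than in other non-mitotic cells (medians 1.11 and 0.64). The highest ratios were those of the condensin genes Smc2 (2.14 and 2.12) and Smc4 (2.13 and 1.81), and Hmgb2 had 1.67 and 1.30. Ccnb2, the cyclin B2 gene, had 0.19 and -0.74 and Cenpa, the centromeric histone, 0.07 and -0.13.

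Against mitotic cells, genes seen in at least 10% of the members or of the mitotic cells of either library were tested, and 16 of 10026 (0.16%) were higher in members and 164 (1.64%) lower. Those 164 included 42 of the 44 further mitosis genes, all 44 being tested here, in a contrast that the choice itself used. The 16 included Mcm2 (log2 1.01 and 1.23), Mcm4 (1.09 and 1.06), E2f1 (1.14 and 1.15) and Ccnd1 (1.44 and 1.11). Fork genes as a list were at a like level in members and mitotic cells, with medians of 0.08 and 0.07 and none of 28 past 2-fold either way. Licensing genes had medians of 0.37 and 0.23.

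The members differed among themselves along the mitosis genes. The 39 members with none of the 6 detected had a median of 11242 UMIs, and the 43 with 3 to 4 detected had 18024, so depth moved with this division and its part in what follows was not tested. Mcm4 was level across it: 1.26 (DBZ) and 0.945 (DMSO) in members with 0 and 1.22 and 1.20 in those with 3 to 4. Mcm2 had 1.55 and 1.18, then 1.33 and 1.12. Rrm2, one of the 7 genes that chose the members, is given only as a description: it had 0.168 and 0.208 in members with 0, 0.279 and 0.235 in those with 1 to 2, and 1.17 and 0.759 in those with 3 to 4, close to the 0.868 and 0.898 of mitotic cells.

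Hist1h2ap was 0 and 0.152 in members with 0 mitosis genes and 1.30 and 0.943 in those with 3 to 4. Mcm10, which activates the loaded helicase, was seen in 0 of the 19 DBZ and 0 of the 20 DMSO members without mitosis genes, which allows, by the limit of 3 cells for a count of 0, shares of cells with a UMI of up to 15.8% and 15% at the low depth of these members, and had levels of 0.259 and 0.282 in members with 3 to 4. Ccna2, the cyclin A2 gene of S phase and G2, had 0.0598 and 0 against 0.783 and 0.232, and reached 1.91 and 1.85 in mitotic cells. E2f1 was highest in members with 3 to 4 (0.892 and 0.896) and lower in those with 0 (0.470 and 0.362) and in mitotic cells (0.236 and 0.233). Vim, an intermediate filament gene, ran the other way, with 7.24 and 9.60 in members with 0 and 2.69 and 3.98 in members with 3 to 4.

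**Figure D4:**
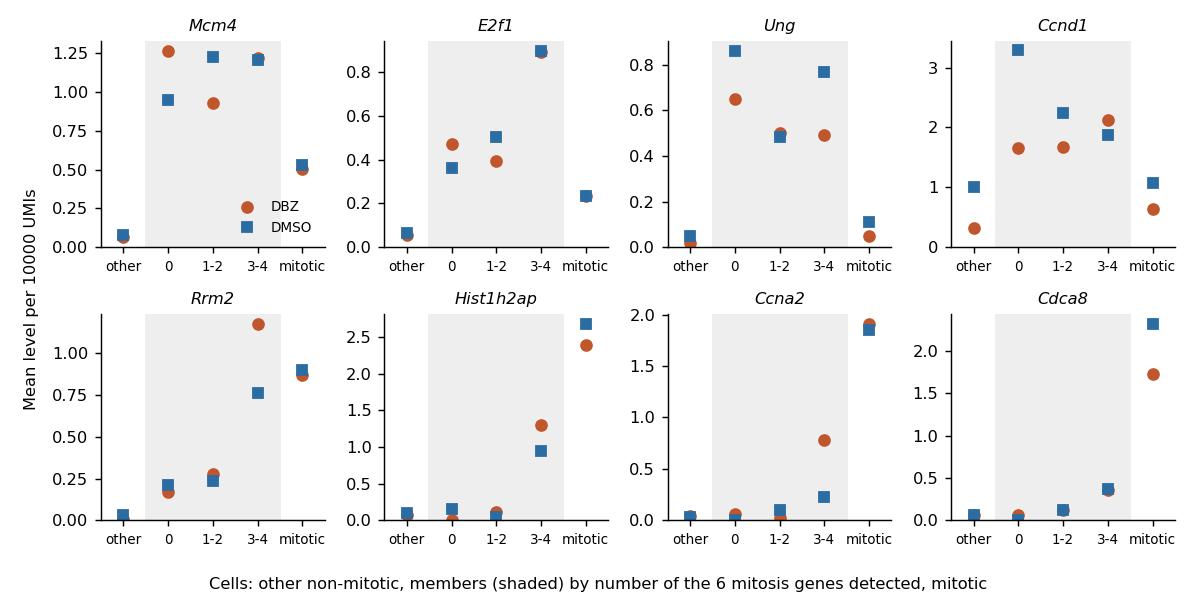
Mean level per 10000 UMIs (vertical, linear, a scale of its own per gene) of 8 genes in other non-mitotic cells, in members with 0, 1 to 2 or 3 to 4 mitosis genes detected (shaded), and in mitotic cells; circles are DBZ and squares DMSO. Mcm4 has its high values inside the shaded groups; Ung and Rrm2 are among the genes that chose the members, so theirs are a description of the choice, while Hist1h2ap, Ccna2 and Cdca8 have theirs in mitotic cells.

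Products of secretory cells had lower means in members, and this came from few cells. Of 12 Paneth genes with enough cells 7 were lower, of 7 goblet genes 3, and of 11 enteroendocrine genes 6, and none was higher. Over all such genes in the table the counts were 8 of 16, 3 of 9 and 11 of 24. Yet the summed Paneth level of a median member was 21.6 in the DBZ library, as in a median other cell (21.6), and 5.90 against 5.24 in the DMSO library. The highest sums were 1767 and 751 in members and 4473 and 4602 in other cells. The median goblet sums were 2.61 and 1.05 in members and 2.55 and 0.958 in others, and the median enteroendocrine sums 1.93 and 0 against 2.12 and 0. Defa20, an alpha-defensin, was detected in all DBZ members and in 64.8% of DMSO members, beside 96.9% and 51.4% of other cells and 98.5% and 73.9% of mitotic cells. Free RNA can give UMIs in every class, and its part here was not tested. Defensin genes also have near-identical copies.

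The lower means of several of these genes changed with the choice of members or the depth range. Single members held much of the level that remained. Without the highest cell of each group, the 75 values of named genes past 2-fold all stayed past it. For genes lower in members this says little, since taking out the highest member lowers the members' mean further. In the DMSO library 1 cell held 67.3% of the members' Tff3 level, a goblet product, and in the DBZ library 1 cell held 29.5% of their Defa20. The Tff3 ratios of -1.71 (DBZ) and -3.66 (DMSO) became -0.62 and 0.0035 when cells with 3 mitosis genes were also set apart. With 250 members the DMSO ratios of Tff3, Defa17 and Defa20 were -0.58, -0.49 and -0.15. Those of Defa17 (-2.17 and -3.73) became -0.64 in the DBZ library when members were chosen after thinning. The goblet gene Spink4 had -1.62 and -3.54, and -0.17 in the DBZ library with cells of 3 mitosis genes set apart. Sct, the hormone secretin, had -1.65 and -2.36, and -0.34 and -0.95 within the middle 50% of member depth. Reg4, a secretory lectin, had -4.34 and -4.06. Its highest member values were 1.41 and 1.62.

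Ceacam10 (-2.06 and -2.23) and Spock2 (-2.77 and -1.90), a secreted proteoglycan, were the other named genes with low ratios. Spock2 was seen in 20.3% and 12.1% of members and 50.6% and 27.2% of other cells.

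Of 21 Wnt targets in the table, 11 had ratios below 0 in both libraries and 4 above 0 in both, and of the 20 with enough cells only Ccnd1 was higher and only Notum lower by 2-fold. The summed level of a median member was 35.7 with DBZ and 25.8 with DMSO, beside 54.6 and 37.3 in a median other cell. A median mitotic cell had 31.2 and 19.3, so the lower sum was not particular to members. Notum encodes a secreted enzyme that inactivates Wnt ligands (chromosome 11, 120653788 to 120661175, minus strand). A median member had 3.83 with DBZ and 0.843 with DMSO, and a median other cell 8.82 and 4.08, with ratios of means of -1.29 and -2.01. The feedback genes Nkd1 (-0.61 and -0.53), Wif1 (-0.76 and -2.72), Znrf3 (-0.33 and -0.32) and Axin2 (-0.01 and -0.18) were below 0 too, and Myc had 0.30 and 0.07. Prox1, a homeobox factor that marks Wnt-driven intestinal tumour cells, had medians of 5.96 and 3.03 in members against 8.93 and 5.92 in others, and ratios of -0.67 and -0.65.

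Lgr5, a marker of stem cells at the crypt base, had ratios of -0.44 and 0.08. Ascl2, a stem cell factor, had 1.11 and 0.54, and Smoc2 1.05 and 0.59. Of 16 stem cell genes only Cdca7 was higher in both libraries (1.94 and 1.52), and it is also in the chromatin list. Of 29 ribosome biogenesis genes, 27 had ratios above 0 in both libraries and 3 passed 2-fold (Nop56, Nop58 and Dkc1), with medians of 0.68 and 0.62.

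Between the libraries, few replication genes passed 2-fold between DBZ members and DMSO members. Of the 9413 genes, 4.98% were more than 2-fold higher and 2.34% more than 2-fold lower in the DBZ members, and the median gene had a log2 of 0.15 (0.11 in other non-mitotic cells). None of the 20 licensing genes, the 28 fork genes or the 20 chromatin genes passed 2-fold, with medians of -0.03, 0.06 and 0.10. In nucleotide synthesis 1 of 27 was higher in DBZ members (Cad, 1.03), in repair 1 of 25 was higher (Rad54l, 1.06) and 1 lower (Mre11a, -1.01), and of 12 histone genes 2 were higher (Hist1h1b, 1.65, and Hist1h2bc, 1.01). Mcm4 had -0.04 (pooled UMIs -0.08, interval -0.46 to 0.29), E2f1 0.01 and Lig1 -0.10. The members were chosen by a sum with 1 limit for both libraries, which favours like levels of linked genes. In G1/S control, Cdc25a (1.22), Ccna2 (1.04) and E2f8 (1.02) were higher in DBZ members, and Myb was lower (-1.23).

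Hes1, a direct Notch target (chromosome 16, 30064384 to 30067796, plus strand), ranged from 0 to 6.09 in the DBZ members, with a median of 0.575, and from 0 to 20.1 in the DMSO members, with a median of 1.38. The ranges overlapped. Its log2 of DBZ over DMSO was -1.33 in members (pooled UMIs -1.27, interval -1.61 to -0.95) and -2.003 in other non-mitotic cells. It was detected in 57.6% of DBZ members and 76.9% of DMSO members. Within the middle 50% of member depth the value in members was -0.92.

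Of the 12 highest ratios in DBZ members, 6 belong to Paneth or goblet products (Defa24 5.83, Defa20 5.24, Tff3 5.12, Defa17 4.48, Spink4 3.88 and Defa5 3.01), with Cpe, a peptide hormone processing enzyme, at 3.28. In the other non-mitotic cells the same genes had ratios of 1.57 (Cpe) to 3.17 (Tff3). In mitotic cells they had ratios of -1.15 (Spink4) to 2.13 (Cpe), with Defa17 at 0.39 and Defa20 at 0.96. The size of the difference, and for Spink4 its direction, thus varied by class. A median DBZ member had 5.77 of Defa24 and a median DMSO member 0.708. A single cell held much of the DBZ members' level of several of these genes: 74.8% for Spink4, 55.6% for Defa17, 39.7% for Defa5, 36.4% for Defa24, 29.7% for Tff3 and 29.5% for Defa20. Npy, a neuropeptide, had 4.09, Aldh1a2, which makes retinoic acid, 3.14, and Ly6d, a surface protein, 3.02. These had 4.50, 2.70 and 2.73 in other cells, and 1 cell held 44.7% (Npy), 32.6% (Aldh1a2) and 57.7% (Ly6d) of the DBZ members' level. The DMSO members held only 1 UMI of Aldh1a2, and with 0.5 added the Aldh1a2 ratio was 0.87, under 2-fold. Wif1, which binds Wnt ligands, had 3.07 in members and 1.10 in others, and Cyp2c55, a cytochrome P450, 2.98 and 2.05.

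Of 19 immediate early genes, which answer growth factors and stress within a short time, 11 were lower in the DBZ members and none higher, with a median of -1.12 in members and -1.29 in other non-mitotic cells. Egr4 had -3.00, Fosl1 -2.44 and Fos -2.36. Fos was found in 61.0% of DBZ members and 96.7% of DMSO members. Errfi1, a feedback inhibitor of the EGF receptor, had -2.34, with levels of 0.707 and 3.78.

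The cytokine genes Cxcl10 and Tnf had -3.00 and -2.89 in members and -1.78 and -1.66 in other cells. Fgfbp1, a carrier of fibroblast growth factors, had -2.68 and was also higher in members than in other cells of each library (1.08 and 1.36). The DBZ members held 11 UMIs of Fgfbp1, with 42.1% of its level in 1 cell and a pooled interval of 0.13 to 2.12. Against mitotic cells Fgfbp1 had 0.03 and 0.36, under 2-fold. Prelp (-2.58), Aadac (-2.52) and Myl9 (-2.45) complete the named genes with UMIs in both member groups. The DBZ members held only 1 UMI of Prelp, 2 of Aadac and 2 of Tnf. With 0.5 added, the ratios of Prelp, Aadac and Tnf were -0.71, -0.78 and -0.91, under 2-fold. Cps1 and Smim24 were seen in 0 of 59 DBZ members, which allows, taking 3 cells as the limit for a count of 0, a share of cells with a UMI of up to 5.08%, and in 15.4% and 22.0% of DMSO members. With 250 members the ratio of Smim24 was -0.44. Cholesterol synthesis genes had a median of -0.65 in members and -0.47 in other cells, and 3 of 20 were lower by 2-fold.

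**Figure D5:**
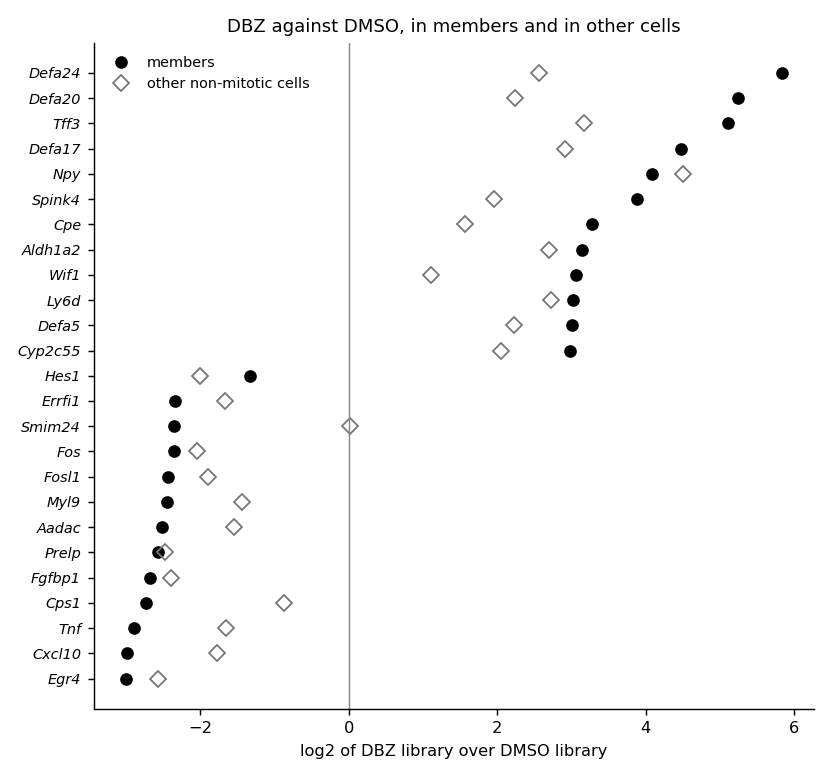
Log2 ratio of the DBZ library over the DMSO library in members (filled circles) and in other non-mitotic cells (open diamonds), for the 12 highest and 12 lowest genes in members and for Hes1. Apart from Smim24, at 0.01 in other cells, genes lie on the same side of 0 in both classes. Mitotic cells are not shown. Cps1 and Smim24 had no UMI in DBZ members, so their filled circles depend on the added 0.05.

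Markers of further cell types were summed in the same way. The enterocyte list, 14 of 18 genes in the table, had median sums of 1.67 and 2.13, beside 1.56 and 1.95 in other cells. The tuft list, 5 of 12 genes in the table, had 7.78 and 6.87 beside 10.4 and 7.08. Of 9 fibroblast genes 2 were in the table, Vim among them, with a median sum of 1.22 (DBZ) and 4.67 (DMSO) in members against 1.69 and 8.37 in other cells. Of 10 immune genes 2 were in the table and their median sum was 0 in every class.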

How the data were processed

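Per the labels' protocols, droplet capture with UMI barcodes aimed at 3000 cells for each sample. Reads were processed with Cell Ranger 2.1.1, Seurat and build mm10, per the submitters' processing notes, which name no filters. The deposited table gives natural log values, the log of 1 plus the UMIs of a gene per 10000 in the cell, for 13373 genes. Values above 0 were whole multiples of 1 step per cell (tolerance 0.01), which gave UMIs, 16168229 in the DBZ and 13083018 in the DMSO library. Cell names starting with CTRL were read as DMSO and those with GSI as DBZ, from the meaning of the names.

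Levels, ratios with 0.05 added, exact conditional intervals for pooled UMIs and Clopper-Pearson 95% intervals were computed with Python 3.11.15, numpy 2.4.6, scipy 1.17.1 and pandas 2.3.3. Code was tested on simulated data. Genes tested were seen in at least 10% of the members of either library (or of mitotic cells, for that comparison). The 13 genes of the choice were not tested. Thinning to 5000 UMIs left out 0 cells. No doublet caller was run. Members and gene lists were chosen with earlier results of these data known. Named genes are the 15 highest and 10 lowest against other non-mitotic cells, the 12 highest and 12 lowest between libraries, leading members of each list, Hes1, Prox1 and Lgr5, leaving out Gm, Rik, mitochondrial and ribosomal genes and Xist. A few of these are not reported here. Rfc3, Vim, Cdca8 and the examples with small ratios were named after their values were seen. Alternatives changed the added value, gene filter, depth and choice of members.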

Additional observations from a re-analysis of the deposited data

Results flagged for a closer look

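Mt3, a metallothionein, was the 1 gene whose ratio between the libraries passed 2-fold in opposite directions in members and in other non-mitotic cells. Its log2 of DBZ over DMSO was -1.005 in members, from levels of 0.505 and 1.06, and 1.208 in other non-mitotic cells, from 3.61 and 1.54. Pooled UMIs gave -0.73 (interval -1.17 to -0.30) in members, under 2-fold, so the call depends on how cells are weighted. In the DMSO library 1 cell held 37.7% of the members' Mt3 level, and Mt3 was detected in 32.2% of DBZ and 33.0% of DMSO members. The difference was not tested, since there was 1 library per treatment.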

How the results depend on the processing

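The DMSO share of members over the DBZ share was 1.98, and 1.215 when 150 cells were chosen by summed levels of the 51 other replication genes, a choice added after seeing the data. Genes higher in members numbered 197, and 318 and 28 with 0.01 and 0.5 added and 121 with cells of 3 mitosis genes set apart. Genes lower in members numbered 62, and 19 with 0.5 added, 32 with genes in at least 25% of members, 103 with no gene filter, 32 with 250 members, 41 with members chosen after thinning and 41 with cells of 3 mitosis genes set apart. Genes higher in DBZ members numbered 469, and 955 and 33 with 0.01 and 0.5 added, 231 at 25% of members and 867 within the middle 50% of member depth. Genes lower in DBZ members numbered 220, and 382 and 28 with 0.01 and 0.5 added, 139 at 25%, 135 with 250 members, 523 within the depth range and 379 in members with under 3 mitosis genes. The overlap with the cells highest in the 51 genes was 71.3%, and 80% with 100 members and 80.67% by summed log values. Tff3 in the DMSO library turned from -3.66 to 0.003533 with cells of 3 mitosis genes set apart. The cause of these changes was not tested. Of the values of named genes that had passed 2-fold, 1081 still passed it under an alternative, 43 fell under it and 1 turned. Alternatives of the gene filter cannot change a gene's ratio, so the 75 passes counted under each of them were fixed in advance. For genes lower in members, taking out the highest cell of each group could hardly undo a pass either. No paired analysis was possible because each treatment has 1 library.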
